A study of Mus musculus with 6 samples.

Results

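The semaphorins, plexins and neuropilins are 31 genes of the 34745 in the deposited table, taken by symbol: 20 semaphorin genes (Sema3a to Sema7a), 9 plexin genes and the 2 neuropilin genes. Their mRNA was measured by RNA-seq in the MGE (medial ganglionic eminence), a part of the ventral forebrain where most parvalbumin and somatostatin interneurons of the cortex are born, dissected from mouse embryos at embryonic day 12.5. The groups were 3 Sp9 null (Sp9-/-) libraries and 3 wild type libraries from littermates, all of a mixed CD1, 129S6 and C57BL/6J background. Sp9 encodes a zinc finger transcription factor of the Sp family, and the labels give no detail of the null allele. They also do not say whether a library came from 1 embryo or a pool. Xist marks female tissue and Ddx3y male tissue. Sp9 null replicates 1 and 2 held 9597 and 11114 counts of Xist with 256 and 566 of Ddx3y. Wild type replicates 2 and 3 held 26189 and 6456 of Xist with 242 and 518 of Ddx3y. Such mixtures point to pooled embryos in these libraries. Sp9 null replicate 3 (19 Xist counts) and wild type replicate 1 (17 Ddx3y counts) remain undecided. The spread behind each p-value is that of these samples and may in part be technical.

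Semaphorins are guidance cues for axons and migrating cells. Members of class 3 are secreted and act mostly through a neuropilin, which binds the ligand, paired with an A-type plexin, which carries the signal into the cell; Sema3e differs in binding Plxnd1 directly. Semaphorins of classes 4 to 6 span the membrane and bind plexins without a neuropilin, and Sema7a is anchored by a lipid and binds Plxnc1 and integrins. In the embryonic forebrain of the mouse, interneurons bound for the cortex carry neuropilins and avoid the striatum, where Sema3a and Sema3f are made, and the MGE factor Nkx2-1 represses Nrp2.

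Sequence totals were 6826447, 10979280 and 9430442 counts in Sp9 null replicates 1, 2 and 3 and 9536050, 10914147 and 9917457 in wild type replicates 1, 2 and 3. A floor of 3 counts in 1 library stood at 0.273 to 0.440 CPM (each count divided by its library total in units of 1000000) and reflects counting error alone. Sp9 itself had 89, 116 and 118 counts in Sp9 null and 1939, 2700 and 1870 in wild type libraries, which edgeR put at -4.13 on the log2 scale (SE 0.14, adjusted p = 2.54e-05); an exact two-sided permutation test of CPM gave p = 0.1, the smallest that 3 against 3 allow. The MGE markers Nkx2-1, Lhx6, Lhx8 and Dlx2 summed to 2006 to 2049 CPM in Sp9 null and 1937 to 2027 CPM in wild type libraries. Within this sum Dlx2 was higher and Lhx6 lower in Sp9 null libraries, both without overlap, so opposite changes offset each other. By edgeR, Dlx2 was at 0.39 on the log2 scale (adjusted p = 0.635) and Lhx6 at -0.46 (adjusted p = 0.339). Replicate 2 of both genotypes stood apart on the first principal component (52% of the variance).

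Promoter sequence is shown for 3 of the 5 genes that a paired fit called, with that of Sema5b, the paralogue of Sema5a. Sp proteins as a family bind GC boxes, so the letters GGGCGG and their reverse complement CCGCCC were searched, overlapping matches included, in the 250 bases before each RefSeq start on GRCm38.p6. The starts table matched 26 of the 31 genes with 37 windows. The motif occurred in 27 of these windows (73.0%), against 10738 of 32817 windows of all genes (32.7%). The motif is made of G and C only, and the windows of all genes were not matched for G and C content or for expression. The part of base content in this difference was not tested. Capitals mark the matches.
Sema5a, chr15:32244563-32244812, plus strand: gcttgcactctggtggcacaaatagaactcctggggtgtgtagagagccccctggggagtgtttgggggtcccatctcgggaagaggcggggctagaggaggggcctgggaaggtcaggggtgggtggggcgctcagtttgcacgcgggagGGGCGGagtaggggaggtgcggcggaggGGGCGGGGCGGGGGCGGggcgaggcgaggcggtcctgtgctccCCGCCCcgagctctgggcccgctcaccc
Sema5b, chr16:35541112-35541361, plus strand: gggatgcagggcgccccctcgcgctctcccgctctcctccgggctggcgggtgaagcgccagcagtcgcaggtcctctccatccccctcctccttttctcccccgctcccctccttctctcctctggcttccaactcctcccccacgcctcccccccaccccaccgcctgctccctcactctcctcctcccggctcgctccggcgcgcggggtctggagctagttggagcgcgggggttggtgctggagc
Plxna3, chrX:74328816-74329065, plus strand: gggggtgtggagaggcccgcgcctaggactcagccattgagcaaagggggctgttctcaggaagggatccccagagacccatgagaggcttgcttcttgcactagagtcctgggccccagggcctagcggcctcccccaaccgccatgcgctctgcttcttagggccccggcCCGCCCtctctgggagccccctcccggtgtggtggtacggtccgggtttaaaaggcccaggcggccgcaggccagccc
Sema6c, chr3:95160170-95160419, plus strand: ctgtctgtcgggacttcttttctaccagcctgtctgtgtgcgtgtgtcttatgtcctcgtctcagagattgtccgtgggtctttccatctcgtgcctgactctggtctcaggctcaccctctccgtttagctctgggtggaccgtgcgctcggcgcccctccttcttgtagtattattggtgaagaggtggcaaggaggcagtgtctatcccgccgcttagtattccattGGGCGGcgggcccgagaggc
The Sema5a window held 5 matches and the Sema5b window 0, and both were 72.0% G or C. The Sema5a window ended at the annotated gene start, whereas that of Sema5b ran past its own at 35541145. The windows of these paralogues therefore do not cover like regions. Genes that no fit called also had matches, with 5 in the Nrp2 window and 4 each in those of Plxnb1, Plxnc1 and 1 of the Plxnb2 starts. The windows of Plxna3 and Sema6c held 1 match each, and a further Sema6c start held 0. A match is a run of letters and not a measured binding site.

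Levels per transcript length were compared by FPKM (fragments scaled by transcript length and library size). Plexins made up most of the family's summed FPKM, with 163 to 189 FPKM over the 9 plexins in Sp9 null and 173 to 196 FPKM in wild type libraries. The 20 semaphorins together summed to 71.8 to 96.0 FPKM in Sp9 null and 74.0 to 96.3 FPKM in wild type libraries. The neuropilins summed to 6.48 to 23.0 FPKM in Sp9 null and 10.0 to 23.0 FPKM in wild type libraries.

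**Figure D1:**
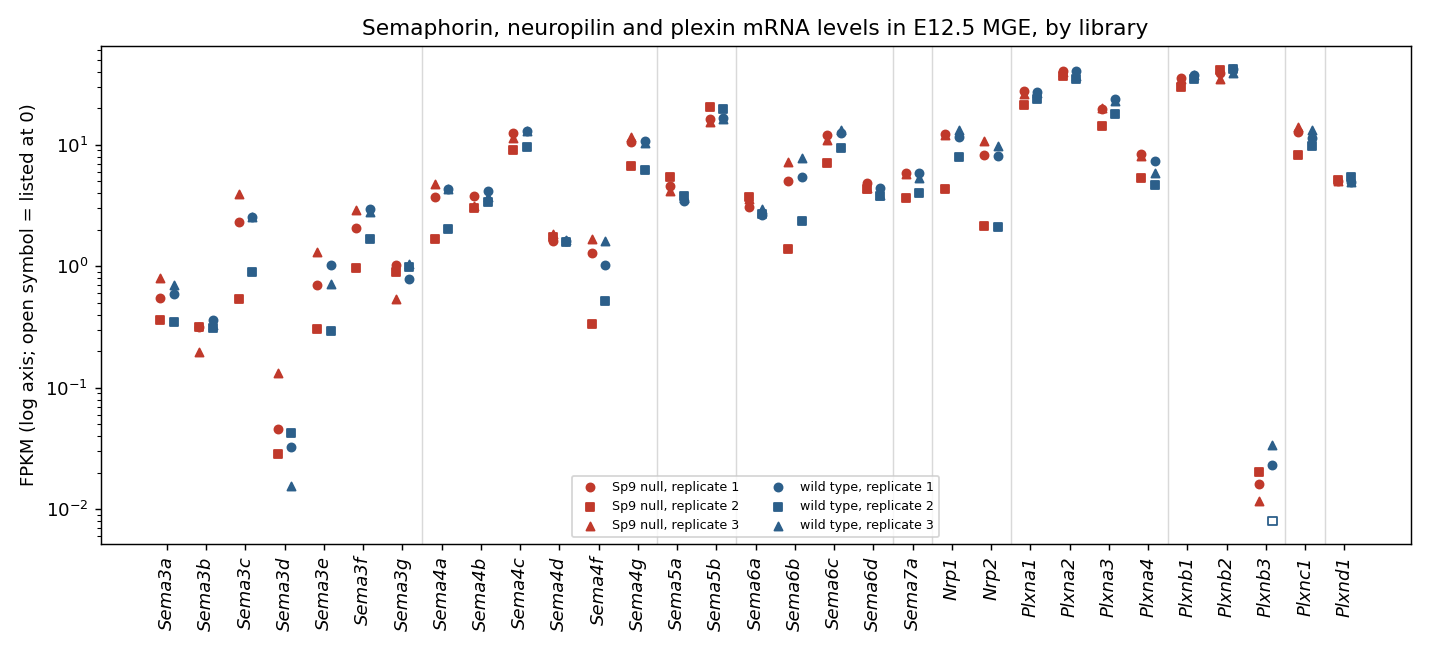
FPKM on a log axis of each of the 31 genes in each library, with Sp9 null libraries in red on the left of each pair and wild type libraries in blue on the right; symbols give the replicate number and an open symbol a value of 0. The genotypes lie on top of each other for most genes, Plxnb3 and Sema3d sit lowest, and the squares of replicate 2 fall below the other replicates for many genes.

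Among the receptors, the levels in order of mean FPKM ran Plxnb2, Plxna2, Plxnb1, Plxna1, Plxna3, Plxnc1, Nrp1, Nrp2, Plxna4, Plxnd1 and Plxnb3. Plxnb2, a receptor for class 4 semaphorins, was at 39.0, 41.2 and 34.9 FPKM in Sp9 null and 42.5, 42.0 and 39.2 FPKM in wild type libraries. Plxna2, which binds Sema6a, was at 40.3, 37.2 and 39.8 FPKM in Sp9 null and 40.8, 34.9 and 36.8 FPKM in wild type libraries. Both genes overlapped between genotypes, and the ranges of Plxnb2 and Plxna2 overlapped each other.

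Plxnb3 was close to undetected, with 1, 2 and 1 counts in Sp9 null and 2, 0 and 3 counts in wild type libraries, all at or under the floor of 3 counts. It did not pass the filter on low counts and was not tested. Sema3d was the other gene left out, with 4, 4 and 16 counts in Sp9 null and 4, 6 and 2 counts in wild type libraries. The remaining 29 genes were tested.

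Among the ligands, the highest gene of class 5, Sema5b, led all semaphorins at 17.4 ± 2.60 FPKM in Sp9 null and 17.6 ± 1.85 FPKM in wild type libraries (SD, n = 3 each). Sema4c, a ligand of Plxnb2, led class 4 at 12.5, 9.0 and 11.5 FPKM in Sp9 null and 13.1, 9.7 and 13.0 FPKM in wild type libraries. Sema6c led class 6 at 10.1 ± 2.61 FPKM in Sp9 null and 11.8 ± 2.05 FPKM in wild type libraries. Sema7a, the only gene of its class, was at 5.09 ± 1.28 FPKM in Sp9 null and 5.05 ± 0.95 FPKM in wild type libraries. The secreted class 3 was low: its 7 genes together summed to 3.43 to 9.79 FPKM in Sp9 null and 4.57 to 8.30 FPKM in wild type libraries. On the mean of all 6 libraries Sema3f, a ligand of Nrp2, was its highest gene, at 2.06, 0.97 and 2.89 FPKM in Sp9 null and 2.96, 1.68 and 2.78 FPKM in wild type libraries. In Sp9 null libraries Sema3c was higher, with a mean of 2.26 FPKM against 1.97 FPKM for Sema3f.

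The genotype comparison asks which of these transcripts differ when Sp9 is lost. In the edgeR quasi-likelihood test with genotype as the only term, 0 of 29 genes passed an adjusted p of 0.05, where 0.147% of the 14929 genes tested did. An unadjusted p under 0.05 was found for 2 of 29, Sema5a and Sema6a, where 5.91% of all genes had one. DESeq2 and limma on FPKM also called 0. The median log2 fold change was 0.014 over the 29 genes and -0.0046 over all genes, with a range from -0.31 (Sema3f) to 0.40 (Sema5a). The null values lay wholly above the wild type values in 2 of 29 genes, again Sema5a and Sema6a, and wholly below in 0. Over all genes 13.0% did not overlap, 4.95% with the null above and 8.06% with it below. The highest gene of each class had an edgeR adjusted p between 0.933 (Sema6c) and 0.998 (Sema5b).

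Both genotypes carry replicate numbers 1 to 3, and libraries with the same number deviated together from their genotype mean (processing section). Adding that number to the model as a block compares within numbers. This fit called 5 of 29 genes, against 4.0% of all genes. Sema5a, Sema6a and Plxna4 rose in Sp9 null libraries (2.22% of all genes rose), and Plxna3 and Sema6c fell (1.78% of all genes fell). An unadjusted p under 0.05 was found with the block for 8 of 29 genes, against 17.2% of all genes. All 3 pairs were higher in Sp9 null for 5 of 29 genes (18.1% of all genes) and lower for 6 (19.5% of all genes). All 5 changes were under 1.5-fold, and all 5 calls were lost without replicate 2 and by DESeq2 with the same block. The adjusted p-values that follow are edgeR's over all 14929 genes.

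**Figure D2:**
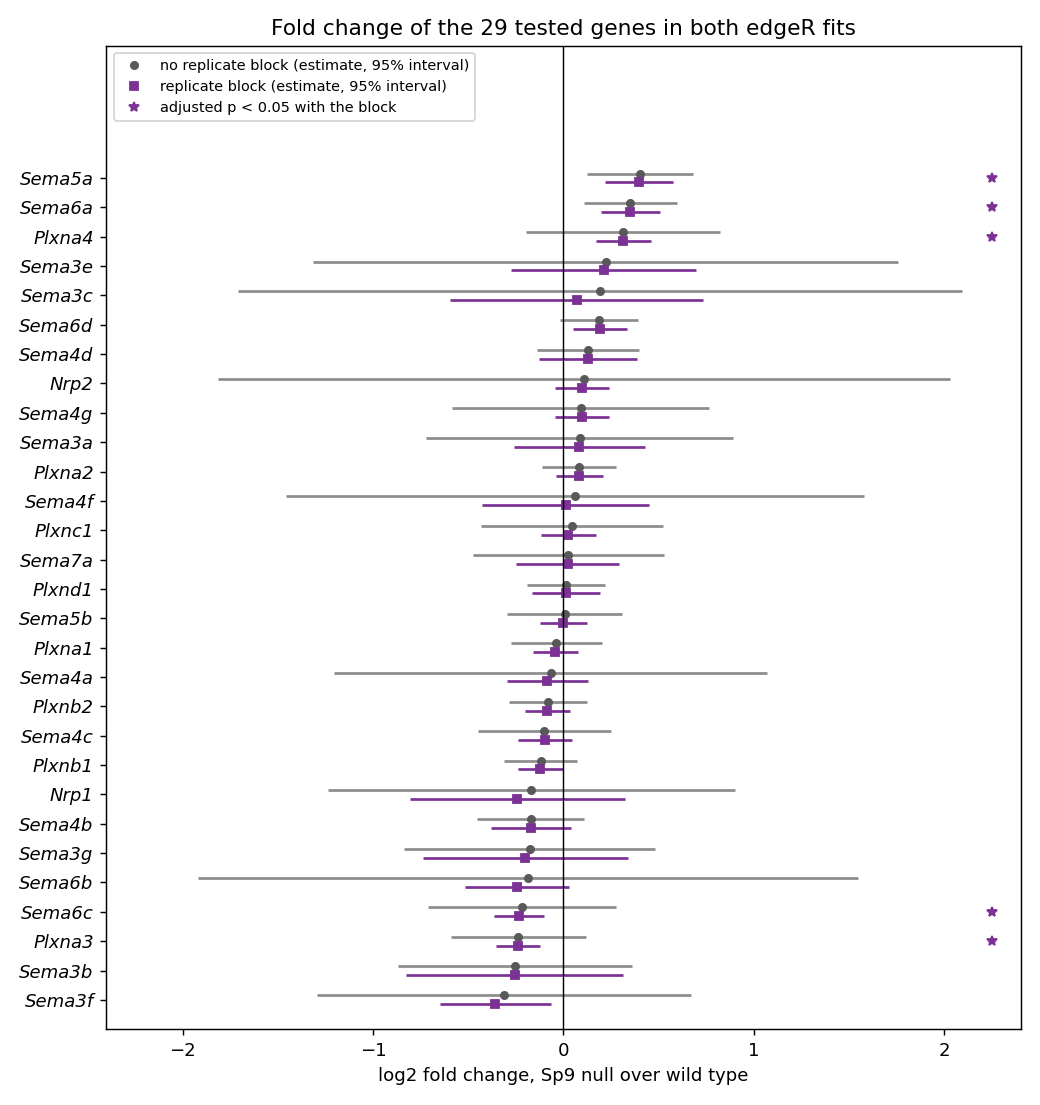
Log2 fold change of Sp9 null over wild type for the 29 tested genes with 95% intervals, without the replicate block (grey circles) and with it (purple squares); stars mark adjusted p under 0.05 with the block. The estimates of both fits lie close together for most genes, the intervals shorten with the block, and Sema5a, at 0.40, has the highest estimate.

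Sema5a, a membrane semaphorin whose extracellular part carries thrombospondin repeats (GRCm38 chromosome 15, 32244813 to 32696341), had 49.8, 58.8 and 45.4 CPM in Sp9 null replicates 1, 2 and 3 and 37.4, 41.3 and 39.7 CPM in the wild type replicates. The means were 51.3 ± 6.86 CPM in Sp9 null and 39.5 ± 1.95 CPM in wild type libraries (SD, n = 3 each). Every null library was above every wild type library. The log2 fold change was 0.40 (SE 0.12, adjusted p = 0.635), and 0.397 with the block (SE 0.09, adjusted p = 0.0050). The blocked adjusted p was 0.0071, 0.337 and 0.0185 without replicate 1, 2 and 3 and 0.224 by DESeq2.

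Sema5b is its paralogue, with the same domain layout; in the mouse retina both act through Plxna1 and Plxna3. Sema5b had 165, 205 and 156 CPM in Sp9 null and 168, 199 and 165 CPM in wild type libraries, and a log2 fold change of 0.006 with a 95% interval from -0.29 to 0.31, or from -0.12 to 0.12 with the block. The ratio of Sema5a to Sema5b counts within a library was 0.302, 0.287 and 0.292 in Sp9 null and 0.223, 0.208 and 0.240 in wild type libraries. These values do not overlap; the pair was picked after its values were seen and the ratio was not tested.

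Sema6a, a ligand of Plxna2 and Plxna4 (chromosome 18, 47235598 to 47368870), had 67.5, 81.2 and 78.3 CPM in Sp9 null and 57.2, 59.1 and 64.7 CPM in wild type libraries, again without overlap. The means were 75.7 ± 7.21 CPM in Sp9 null and 60.3 ± 3.94 CPM in wild type libraries. The log2 fold change was 0.35 (SE 0.11, adjusted p = 0.635), and 0.35 with the block (SE 0.08, adjusted p = 0.0040). Without replicate 1, 2 and 3 the blocked adjusted p was 0.00061, 0.290 and 0.0619, and by DESeq2 it was 0.183.

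Sema6c, of the same class (chromosome 3, 95160457 to 95174024), went the other way. It had 164, 96.5 and 150 CPM in Sp9 null and 171, 129 and 182 CPM in wild type libraries, so the genotypes overlapped while each null library was below the wild type library of its number. The means were 136.6 ± 35.4 CPM in Sp9 null and 160.5 ± 27.8 CPM in wild type libraries. The log2 fold change was -0.22 (SE 0.21, adjusted p = 0.933), and -0.23 with the block (SE 0.06, adjusted p = 0.0312). The blocked adjusted p without replicate 1, 2 and 3 was 0.00092, 0.501 and 0.322, and 0.598 by DESeq2. Without Sp9 null replicate 2 alone and with no block, the log2 fold change was -0.023.

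The other membrane ligands of class 6 were not called. Sema6d, a ligand of Plxna1, was higher in all 3 pairs, by 0.13, 0.22 and 0.22 on the log2 scale, with adjusted p = 0.127 in the blocked edgeR fit. It is the one member on chromosome 2, at 50.8 Mb from Sp9. Sema6b had 20.1, 5.56 and 28.8 CPM in Sp9 null and 21.7, 9.44 and 31.3 CPM in wild type libraries, with a 95% interval from -1.92 to 1.55 on the log2 scale, or -0.52 to 0.03 with the block.

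The A-type plexins carried a second pair that differed in direction. Plxna4, which transmits Sema3a signals with Nrp1 and also binds Sema6a (chromosome 6, 32144268 to 32588192), had 120, 76.9 and 117 CPM in Sp9 null and 105, 66.6 and 83.6 CPM in wild type libraries. The means were 104.5 ± 24.0 CPM in Sp9 null and 85.2 ± 19.4 CPM in wild type libraries. The ranges overlapped, but each null library exceeded its wild type counterpart, by 0.18, 0.25 and 0.51 on the log2 scale. The log2 fold change was 0.31 (SE 0.21, adjusted p = 0.903), and 0.32 with the block (SE 0.07, adjusted p = 0.0060). Without replicate 1, 2 and 3 the blocked adjusted p was 0.00051, 0.115 and 0.357, and by DESeq2 0.203. Of the antisense genes annotated within Plxna4, Plxna4os3 had 0 to 2 counts a library and Plxna4os1 and Plxna4os2 had 0 in all 6.

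Plxna3, which transmits Sema3f signals with Nrp2 (chromosome X, 74329066 to 74344689), had 244, 177 and 247 CPM in Sp9 null and 295, 220 and 282 CPM in wild type libraries. The means were 222.5 ± 39.6 CPM in Sp9 null and 265.5 ± 40.2 CPM in wild type libraries. It was lower in each null library than in its counterpart, by similar amounts (-0.28, -0.27 and -0.16 on the log2 scale). The log2 fold change was -0.24 (SE 0.15, adjusted p = 0.897), and -0.24 with the block (SE 0.06, adjusted p = 0.0110). The blocked adjusted p without replicate 1, 2 and 3 was 0.0107, 0.254 and 0.114, and 0.218 by DESeq2. The X-linked Xist was at 1406, 1012 and 2.02 CPM in Sp9 null and 2681, 2400 and 651 CPM in wild type libraries, and the Y-linked Ddx3y at 37.5, 51.5 and 55.7 CPM in Sp9 null and 1.78, 22.2 and 52.2 CPM in wild type libraries. These 2 transcripts follow the share of female and male tissue in a library. Within each replicate number Xist was lower and Ddx3y higher in Sp9 null, so the pairs were not matched for sex. The part of sex composition in the value of this X-linked gene was not tested.

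**Figure D3:**
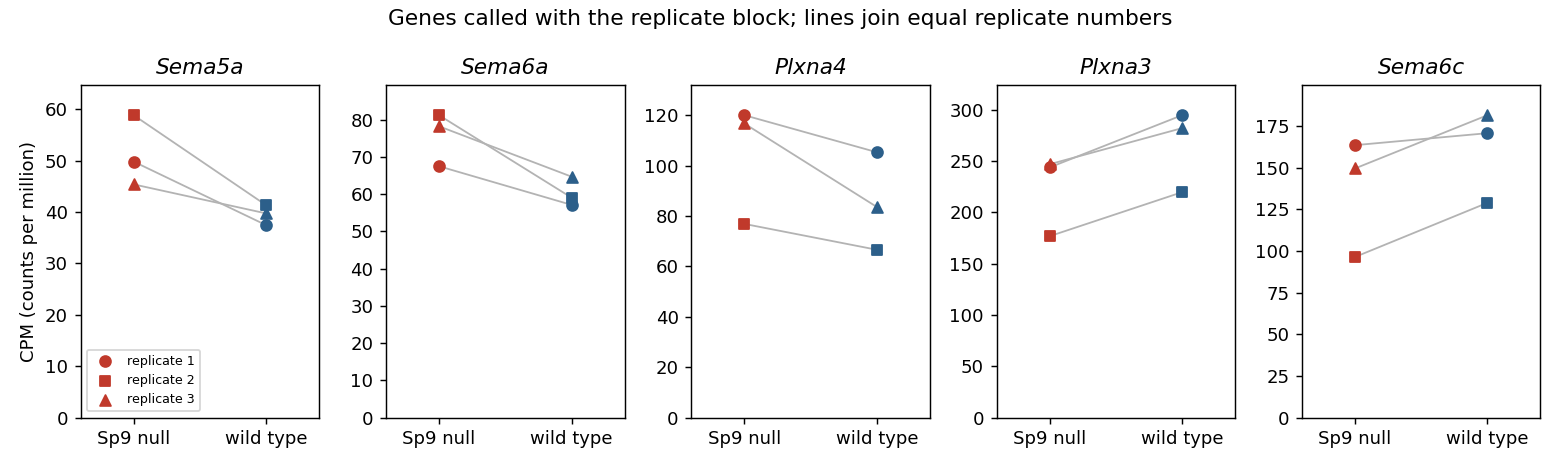
CPM of the 5 genes called with the replicate block, Sp9 null on the left and wild type on the right of each panel, with the y axis from 0; symbols give the replicate number and lines join equal numbers. Sema5a and Sema6a do not overlap between genotypes, whereas Plxna4, Plxna3 and Sema6c overlap and keep 1 direction within each joined pair.

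The ratio of the pair was compared within libraries. Plxna4 counts per Plxna3 count were 0.492, 0.435 and 0.473 in Sp9 null and 0.357, 0.303 and 0.296 in wild type libraries, a ratio of means of 1.46. The groups do not overlap, although both genes overlap when taken singly. Plxna4 was higher and Plxna3 lower in each null library than in its counterpart, so the choice of this pair favoured such a separation. For Sema6a over Sema6c the ratios were 0.413, 0.842 and 0.523 in Sp9 null and 0.335, 0.458 and 0.356 in wild type libraries, which overlap. These pairs were also picked after their values were seen and were not tested.

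The remaining A-type plexins had narrow intervals around 0. Plxna2 had a log2 fold change of 0.08 (95% interval -0.11 to 0.28) and Plxna1 of -0.037 (-0.28 to 0.20). Neither interval shows that the levels are equal.

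Among B-, C- and D-type plexins, 0 of 4 tested genes were called in either fit. Plxnb1, a receptor of Sema4d, was lower in all 3 pairs at -0.12 on the log2 scale with the block (SE 0.06, adjusted p = 0.271 by edgeR). Plxnb2 was at -0.082 (95% interval -0.28 to 0.12). Plxnc1, the receptor of Sema7a, had 105.5, 68.4 and 116 CPM in Sp9 null and 93.8, 80.5 and 110.2 CPM in wild type libraries, a log2 fold change of 0.045 (-0.43 to 0.52). Plxnd1, an endothelial and neuronal receptor of Sema3e, was the steadiest member at 41.6, 42.1 and 41.0 CPM in Sp9 null and 40.6, 44.4 and 40.4 CPM in wild type libraries, a log2 fold change of 0.014 (-0.19 to 0.22).

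Neither neuropilin was called. Nrp1, the receptor of Sema3a, had 73.1, 25.7 and 71.8 CPM in Sp9 null and 68.1, 46.6 and 78.3 CPM in wild type libraries, a log2 fold change of -0.17 (95% interval -1.24 to 0.90). Nrp2, the receptor of Sema3f, had 114.6, 29.6 and 150.0 CPM in Sp9 null and 111.6, 29.4 and 134.7 CPM in wild type libraries. Replicate 2 was far below the others in both genotypes for Nrp2, and the genotypes differed little within each number. Its log2 fold change was 0.11 with an interval from -1.81 to 2.03, which the block shortened to -0.046 to 0.24. Nkx2-1 was at 926 CPM in Sp9 null and 848 CPM in wild type libraries on average and was not called in either fit. It was higher in each null library than in its counterpart, by 0.225, 0.069 and 0.16 on the log2 scale. With the block it was at 0.15 (edgeR adjusted p = 0.172), which does not show that its levels are equal.

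Of the class 3 ligands, 0 of 6 tested genes were called in either fit, and 0 kept 1 direction in all 3 pairs. Sema3a and Sema3f, the ligands made in the striatum, had log2 fold changes of 0.08 (95% interval -0.72 to 0.89) and -0.31 (-1.29 to 0.67). With the block Sema3f was at -0.36 (-0.65 to -0.067) with adjusted p = 0.172 over all genes. With no block, Sema3f was at 0.026 without Sp9 null replicate 2 and at -0.72 without Sp9 null replicate 3. Sema3d, Sema3a, Sema3e and Sema3c lie within 5.35 Mb of chromosome 5. Sema3c had 25.9, 6.01 and 43.6 CPM in Sp9 null and 28.4, 10.1 and 28.2 CPM in wild type libraries, and Sema3e had 8.20, 3.55 and 15.3 CPM in Sp9 null and 11.8, 3.39 and 8.27 CPM in wild type libraries. For both, Sp9 null replicate 3 was the highest library, and the spread within a genotype was larger than the difference between genotypes.

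Of the class 4 ligands, 0 of 6 were called in either fit, with log2 fold changes from -0.17 (Sema4b) to 0.13 (Sema4d). Sema4c, the highest, had 94.8, 68.1 and 86.8 CPM in Sp9 null and 99.2, 73.3 and 98.6 CPM in wild type libraries, a log2 fold change of -0.10 (95% interval -0.45 to 0.25). Sema4b and Sema4c were lower in all 3 pairs. Sema7a had 19.3, 11.9 and 19.1 CPM in Sp9 null and 19.3, 13.2 and 17.4 CPM in wild type libraries, a log2 fold change of 0.026 (-0.48 to 0.53).

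Many of these genes differed between replicate numbers in the same way in both genotypes. Replicate 2 was the lowest library of its genotype in both genotypes for 21 of the 29 genes, where this held for 28.4% of all genes, and the highest in both for 3 (22.5% of all genes). The 3 were Plxnd1, Sema5a and Sema5b. Nrp2 in replicate 2 was at 0.224 of the mean of replicates 1 and 3 in Sp9 null and 0.239 in wild type libraries. Sema3c was at 0.173 in Sp9 null and 0.356 in wild type, Sema6b at 0.227 in Sp9 null and 0.356 in wild type, Sema4f at 0.226 in Sp9 null and 0.393 in wild type, and Sema3e at 0.303 in Sp9 null and 0.337 in wild type libraries. The order of the genes by this ratio was alike in both genotypes (Spearman rho 0.947 across 29 genes, a description, since genes of 1 library share its tissue and depth).

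**Figure D4:**
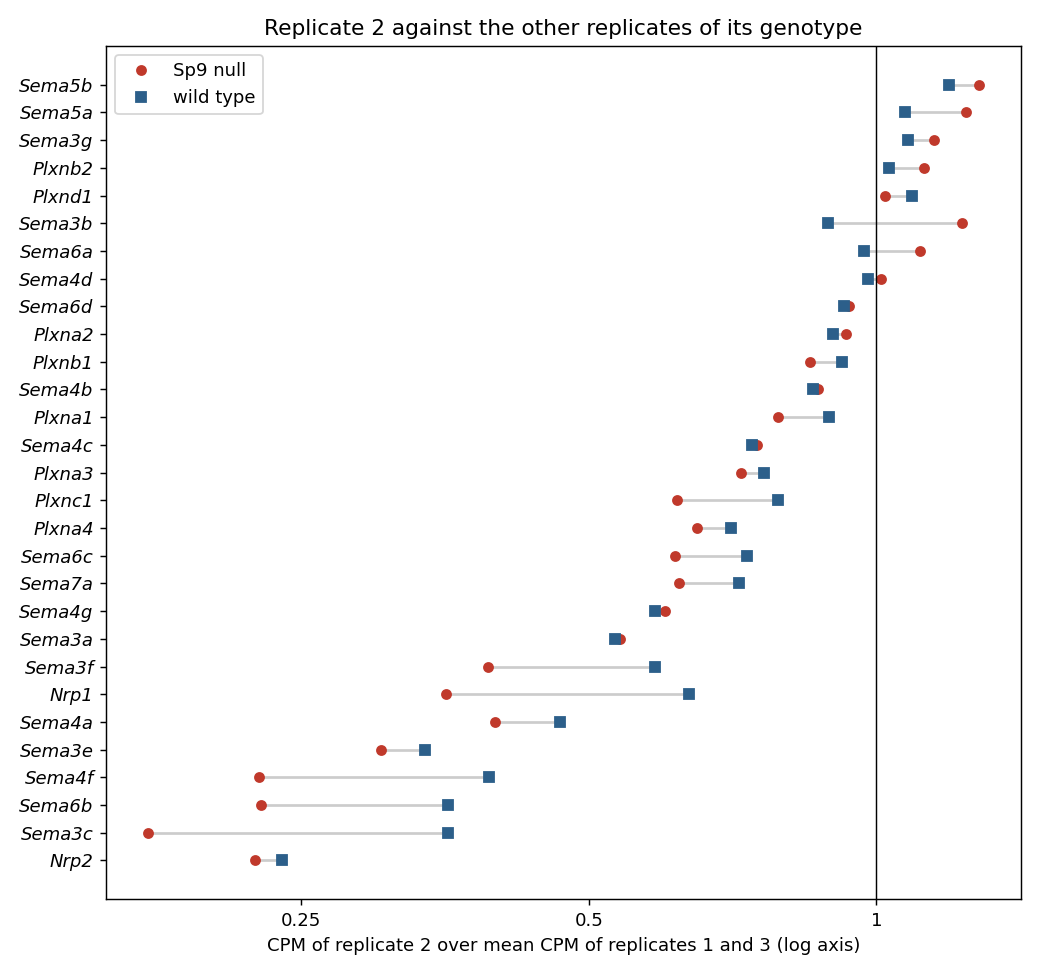
CPM of replicate 2 over the mean CPM of replicates 1 and 3 of the same genotype, on a log axis, for the 29 tested genes; red circles are Sp9 null and blue squares wild type. Genes are ordered from Nrp2 at the bottom to Sema5b at the top, and both symbols of a gene lie close together for most genes.

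Other cell markers moved with the replicate number. The summed level of 5 pan-neuronal genes (Tubb3, Dcx, Stmn2, Map2, Elavl3) was 3273, 2146 and 3578 CPM in Sp9 null replicates 1, 2 and 3 and 3631, 2632 and 3566 CPM in the wild type replicates. That of 5 radial glia genes was 1085, 1287 and 994 CPM in Sp9 null and 1042, 1302 and 1085 CPM in wild type libraries. Nes made up most of that sum, at 719, 973 and 714 CPM in Sp9 null and 743, 926 and 767 CPM in wild type libraries. Hes5 was also highest in replicate 2 of both genotypes, but the other radial glia genes were not. Slc1a3 was highest in replicate 1 of both genotypes. Fabp7 was highest in replicate 1 of Sp9 null and in replicate 2 of wild type libraries. Pax6 was lowest in replicate 2 of both genotypes. Tbr1, of pallial neurons, had 159, 1 and 395 counts in Sp9 null and 141, 7 and 200 counts in wild type libraries. Replicate 2 was lowest in the pan-neuronal sum and in Tbr1 in both genotypes. The other pallial markers had at most 8 counts a library, and Slc17a7 was not lowest in replicate 2 of either genotype. The hypothalamic markers Otp, Sim1 and Rax also summed lowest in replicate 2, at 4.25, 0.18 and 5.62 CPM in Sp9 null and 2.94, 0.46 and 3.43 CPM in wild type libraries. Of these only Otp passed the filter. Of the 5 pallial markers, Tbr1 was the 1 that passed the filter, and it rose with the block (0.81 on the log2 scale, edgeR adjusted p = 0.0238). The pairs did not share this rise, at 0.64, -1.49 and 1.08 for replicates 1, 2 and 3. Without the block Tbr1 was not called (adjusted p = 0.977). The part of all these markers in the replicate 2 levels of Nrp2 and the class 3 semaphorins was not tested. In bulk tissue fewer cells of a type and less RNA per cell cannot be told apart.

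Markers of the MGE and of other cells also moved with genotype. Of the MGE markers, Dlx2 rose with the block (0.39 on the log2 scale, edgeR adjusted p = 3.9e-05) and Lhx6 fell (-0.45, adjusted p = 6.0e-06). Nkx2-1 and Lhx8 were not called. Markers of the lateral ganglionic eminence and striatum summed to 346, 386 and 358 CPM in Sp9 null and 318, 304 and 325 CPM in wild type libraries, and 3 of 5 (Meis2, Foxp1 and Six3) rose with the block. Ebf1 was lower in all 3 pairs (-0.32 on the log2 scale, edgeR adjusted p = 0.144), Isl1 was at 0.080 (adjusted p = 0.708), and Meis2 had the highest level of the 5. Microglial markers summed to 12.01, 10.2 and 7.32 CPM in Sp9 null and 28.6, 32.2 and 26.9 CPM in wild type libraries, and 4 of 5 fell with the block. Endothelial markers, at 120 to 135 CPM in Sp9 null and 123 to 142 CPM in wild type libraries, had 0 of 6 called. Of the pan-neuronal markers 1 of 5 was called with the block, Tubb3, which fell, while Map2 was higher in all 3 pairs (0.17 on the log2 scale, edgeR adjusted p = 0.143). Of the erythroid markers 1 of 4 was called, Hbb-bh1, which rose, while Hbb-y was at -0.11 and Hba-a1 at -0.0055 on the log2 scale. Mitochondrial genes took 2.32%, 3.43% and 3.41% of counts in Sp9 null and 2.20%, 2.22% and 2.28% in wild type libraries, without overlap. The part of these markers and of the mitochondrial share in the values of Sema5a, Sema6a, Plxna4, Plxna3 and Sema6c was not tested.

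Of 42 further genes of semaphorin signalling (coreceptors, cytoplasmic effectors and shared ligands), 40 passed the filter. Without the block 0 of the 40 were called (0.147% of all genes), and DESeq2 called 0. An unadjusted p under 0.05 was found for 1 of 40 in that edgeR fit (5.91% of all genes). With the block 2 of 40 rose (2.22% of all genes) and 0 fell (1.78% of all genes). Pak3, a kinase that acts on the actin cytoskeleton below Rac, had 166, 151 and 188 CPM in Sp9 null and 126.5, 125.7 and 149.6 CPM in wild type libraries, which do not overlap. By edgeR it was 0.35 higher on the log2 scale (SE 0.11, adjusted p = 0.644), and 0.35 with the block (SE 0.06, adjusted p = 0.00024), a call kept without each replicate number in turn (0.00024, 0.0248 and 0.0318) and by DESeq2 (0.0096). Pak3 is X-linked, as Plxna3 is, and the part of sex composition in its value was not tested either.

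Nrcam, an adhesion molecule that binds Nrp2 in the Sema3f receptor of the mouse, had 127, 68.4 and 138 CPM in Sp9 null and 103, 65.0 and 102 CPM in wild type libraries. By edgeR its log2 fold change was 0.32 (SE 0.30, adjusted p = 0.932). With the block it rose by 0.30 on the log2 scale (SE 0.07, edgeR adjusted p = 0.0083), a call lost without replicate 3 (0.396) and by DESeq2 (0.262). The collapsin response mediator genes Dpysl2, Dpysl4, Dpysl5 and Crmp1 and the Mical genes were not called in either fit, nor was Dpysl3, at -0.19 with the block (adjusted p = 0.0972). Mical1, an enzyme that acts on actin below plexins, had 49.7, 46.3 and 45.1 CPM in Sp9 null and 53.5, 51.3 and 53.8 CPM in wild type libraries. These values did not overlap, and edgeR put Mical1 at -0.15 on the log2 scale (SE 0.08) with adjusted p = 0.897. Of the 40 partners tested, the null lay wholly above in 1 (4.95% of all genes) and wholly below in 1 (8.06% of all genes).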

How the data were processed

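RNA-seq of 3 Sp9 null and 3 wild type libraries was used as deposited. Per the file headers, the deposited table lists whole-number counts, and beside them FPKM values that the authors computed. TopHat, Cufflinks 2.1.1 and GRCm38.p4 are named, without roles, per the submitters' processing notes; the counting program and strandedness are not given in the sources used here. Unused sample columns numbered 0. Of the 31 genes, 24 had the same coordinates in GENCODE M21, and 6 overlap an annotated antisense gene: Plxna4, Sema5a, Nrp2, Plxna1, Plxnb1 and Sema3e; without stated strandedness their reads cannot be told apart.

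Counts were tested over all genes in R 4.3.3 with edgeR 4.0.16 and its quasi-likelihood F test (TMM scaling, default expression filter, robust dispersion, genotype as the only term, two-sided, Benjamini-Hochberg adjustment, called under 0.05). Each standard error was approximated by dividing the absolute log2 fold change by the root of F, and intervals are 95%. CPM is each count divided by its library total in units of 1000000. Alternatives were DESeq2 1.42.0, RLE scaling, no filter, limma 3.58.1 on log2(FPKM + 0.1) or log2(FPKM + 1), left-out libraries and a replicate block. Scripts were tested on simulated data.

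Deviations from the genotype mean correlated by 0.335, 0.729 and 0.535 between libraries numbered 1, 2 and 3, each over 0.1, so same-numbered libraries were treated as pairs. The pairing comes from the data, since the labels do not say what a number marks, and numbers 1 and 3 were not told apart (0.353 for Sp9 null 3 with wild type 1). Genes named in full were those called in either fit, those with unadjusted p under 0.05 in both, those whose genotypes do not overlap and the highest of each class. The members and gene lists were chosen with earlier results of these data known.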

Additional observations from a re-analysis of the deposited data

How the results depend on the processing

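With the replicate block the calls numbered 597 over all genes, 5 among the semaphorins, plexins and neuropilins and 2 among the signalling partners. DESeq2 called 89 genes in all, and with the replicate block 158, 0 among the family and 1 among the partners. Without a filter on low counts 65 genes were called. Limma on FPKM called 40 with a pseudocount of 0.1, 38 with 1, and 43 with no filter. A block with 2 levels (number 2 against 1 and 3), chosen after seeing the data, called 312 genes, 3 of the family (Sema5a, Sema6a and Plxna3) and 2 partners; Plxna4 and Sema6c missed at edgeR adjusted p = 0.0563 and 0.0742. With libraries or replicate numbers left out, with or without the block, counts ran from 2 to 1193 over all genes, from 0 to 5 in the family and from 0 to 4 among the partners. Omitting both replicate 2 libraries gave 126 with the block and 89 without it, with 0 of the family in each; omitting replicate 3 of both genotypes gave 219 with the block, and Sp9 null replicate 2 alone gave 34 without it. Fewer libraries entered those fits. Depth limits Sema3d and Plxnb3, which were not tested, and a p that misses the threshold does not show that levels are equal. Of the 29 tested genes, 12 kept the sign of their log2 fold change in every setting tried and 17 took both signs; 67 of 551 refits had the other sign, none of a called gene. With single libraries left out in turn, the log2 fold changes of those that changed sign ran as follows: Nrp1 -0.39 to 0.19, Nrp2 -0.36 to 0.55, Plxna1 -0.10 to 0.061, Plxnc1 -0.11 to 0.24, Plxnd1 -0.011 to 0.064, Sema3a -0.25 to 0.34, Sema3c -0.51 to 0.68, Sema3e -0.43 to 0.65, Sema3f -0.72 to 0.026, Sema3g -0.34 to 0.056, Sema4a -0.41 to 0.26, Sema4c -0.23 to 0.019, Sema4f -0.41 to 0.52, Sema4g -0.12 to 0.30, Sema5b -0.14 to 0.10, Sema6b -0.73 to 0.26 and Sema7a -0.11 to 0.22. With the replicate block and without replicate 1 of both genotypes, the other sign was found for Plxnc1 -0.039 and Sema4f -0.15. With the replicate block and without replicate 2, the other sign was found for Plxna1 0.011 and Sema5b -0.041. With the replicate block and without replicate 3, the other sign was found for Plxnc1 -0.016, Plxnd1 -0.0052, Sema3a -0.00095, Sema3c -0.36, Sema3e -0.27, Sema3g 0.12, Sema4f -0.048 and Sema7a -0.053. Without replicate 2 and with no block, the other sign was found for Plxna1 0.010 and Sema5b -0.042. By DESeq2 with the replicate block, the other sign was found for Sema3c -0.038 and Sema4f -0.021. By limma with a pseudocount of 0.1, filtered or not, the other sign was found for Plxnd1 -0.0061, Sema3c -0.057, Sema4f -0.057, Sema5b -0.023 and Sema7a -0.0036. By limma with a pseudocount of 1, the other sign was found for Plxnd1 -0.0053, Sema5b -0.022 and Sema7a -0.00075. With the block of 2 levels, the other sign was found for Sema5b -0.00038. In 14 refits, all with a replicate block, Sema5a, Sema6a, Plxna4, Plxna3 or Sema6c was called, which the fit without a block did not do. The cause of the changes of sign was not tested.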
